A study of Mus musculus with 12 samples.

Results

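Il34 and Csf1 encode the ligands interleukin-34 and macrophage colony-stimulating factor, Csf1r their common receptor, and Csf2ra and Csf2rb the alpha and beta chains of the receptor for granulocyte-macrophage colony-stimulating factor. These 5 genes, of 31053 listed in the deposited count matrices, were examined in every cell class of the stromal vascular fraction (SVF) of epididymal (eWAT) and inguinal (iWAT) white adipose tissue. Il34 was chosen by its UMI counts in iWAT progenitor cells, where earlier results of these data showed a shift, so its iWAT values are given as a description with no test. The SVF is what remains of collagenase-digested fat once floating adipocytes are discarded, and single-cell RNA sequencing was done on 12 libraries, 2 for each group and depot. Lean C57BL/6J mice on vehicle form the group WT-Veh, and Lepob/Lepob mice, which lack functional leptin and grow obese, form ob/ob-Veh when gavaged with vehicle. In the group ob/ob-Rosi the Lepob/Lepob mice were gavaged every morning and evening with 30 mg/kg of rosiglitazone, a PPARγ agonist, over 3 days. All mice were males aged 12 weeks. Genotype and obesity cannot be told apart in the comparison of ob/ob-Veh with WT-Veh. The labels call the libraries biological replicates, without saying whether the eWAT and the iWAT library of a number came from the same mouse.

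Macrophages need signals through CSF1R to survive and proliferate, and in most tissues these come as CSF1 or IL-34 from stromal cells rather than from the macrophages themselves. IL-34 can also bind the phosphatase PTPRZ1 and the proteoglycan syndecan-1. The granulocyte-macrophage receptor signals through JAK2 and STAT5 and serves monocytes, dendritic cells and granulocytes, and its beta chain is shared with the receptors for interleukin-3 and interleukin-5. In GRCm38, Il34 lies on chromosome 8 from base 110741829 to base 110805924 on the minus strand, Csf1 on chromosome 3 from base 107741048 to base 107760469 on the minus strand, and Csf1r on chromosome 18. Csf2ra lies on chromosome 19 from base 61223957 to base 61228429 on the minus strand, and Csf2rb on chromosome 15 from base 78325752 to base 78353847 on the plus strand. Csf2rb has a paralog beside it, Csf2rb2, which serves interleukin-3 alone. Of the stretches of 91 bases in Csf2rb transcripts, 5.35% also occur in Csf2rb2, so a small part of the reads of either gene is uncertain.

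The libraries held 20132553 to 92475986 unique molecular identifiers (UMIs, each counting a captured RNA molecule once), and 6472 to 17500 cells per library were kept. No pair of libraries shared more than 99 cell barcodes, 1.05% of the smaller library. The iWAT library WT-Veh replicate 1 stands apart, with a median of 1132 UMIs per cell, 124 progenitor-like cells and an unnamed cluster led by Igkc and Trbc2 that took 7322 of its 17063 cells. Groups are called by their labels throughout. The mutated Lep of ob/ob mice is still transcribed, so the presence of its RNA does not check the genotype. Whether its level bears on the labels was not tested. In eWAT Lep stood at 28.0 and 42.5 UMIs for every 100 UMIs of the adipocyte transcript Adipoq in WT-Veh, 3.95 and 16.2 in ob/ob-Veh and 240.0 and 390.0 in ob/ob-Rosi, from 7 to 277 Lep UMIs per library, so the ob/ob groups lay on either side of WT-Veh. In iWAT the ratio was 20.1 and 31.6, 36.4 and 15.1 (from 4 and 8 Lep UMIs), and 164 and 141, with the ob/ob-Veh libraries on both sides of WT-Veh. LAM-like cells, named for the lipid-associated macrophages, numbered 6726, 140 and 6720 in eWAT under these 3 labels. They came from 3 clusters, and the largest, led by Il1b, Vcam1 and Ccl4, held 43.0%, 53.6% and 41.2% of them. In that cluster 5 LAM markers were 2-fold or more over the median of the other macrophage-like clusters, against 10 in the one led by Gpnmb and Mmp12. The number of LAM-like cells leaves out, in every group, any macrophages that went with the discarded floating fraction. Whether it bears on the labels was not tested either. The ob/ob-Veh cells of several classes also formed clusters of their own: clusters led by Ccl8 and Lyve1 held 99.6% of WT-Veh and 97.1% of ob/ob-Rosi eWAT PVM-like cells, whereas a cluster led by Cd209f and Cd209d held 97.2% of the ob/ob-Veh ones. Whether this separation has a part in the differences below was not tested.

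Cell classes were named from marker genes and carry "-like" because only transcripts were read. The adipocyte precursor (APC) clusters were divided into progenitor-like cells (markers such as Pi16 and Dpp4) and preadipocyte-like cells (such as Icam1 and Cd36), and the macrophage clusters into perivascular (PVM), lipid-associated (LAM), non-perivascular with monocytes (NPVM) and proliferating (PLAM) kinds. The split of APC-like cells is the less firm one: an APC-like sub-cluster took the name whose markers were ahead within libraries, and in 6 of 10 named sub-clusters of eWAT and 4 of 11 of iWAT fewer than 3 markers of that name were 2-fold higher than in other APC-like cells. Levels are given as CPM, the UMIs of a gene per 1000000 UMIs of all cells of a class in a library. CPM values are compared between classes and libraries for the same gene, not between genes. Comparisons of classes are descriptions, since clusters and levels come from the same cells. The members and their pathway were, however, left out of the genes used for clustering.

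Most UMIs of both ligands were in APC-like cells and most of Csf1r in macrophage-like cells. In eWAT, APC-like cells made up at most 44.7% of the cells of a library but held 77.6% to 88.9% of the Csf1 UMIs and 53.4% to 78.6% of the Il34 UMIs. In iWAT they held 89.2% to 96.6% of the Csf1 and 87.5% to 97.3% of the Il34 UMIs in 5 libraries, and 66.5% and 60.7% in WT-Veh replicate 1, where they were 6.65% of the cells. Macrophage-like cells held 86.1% to 91.9% of the eWAT Csf1r UMIs. In iWAT, macrophage-like cells held 79.7% to 92.3% of the Csf1r UMIs in 5 libraries and 58.9% in WT-Veh replicate 1, where they were only 7.84% of the cells.

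**Figure D1:**
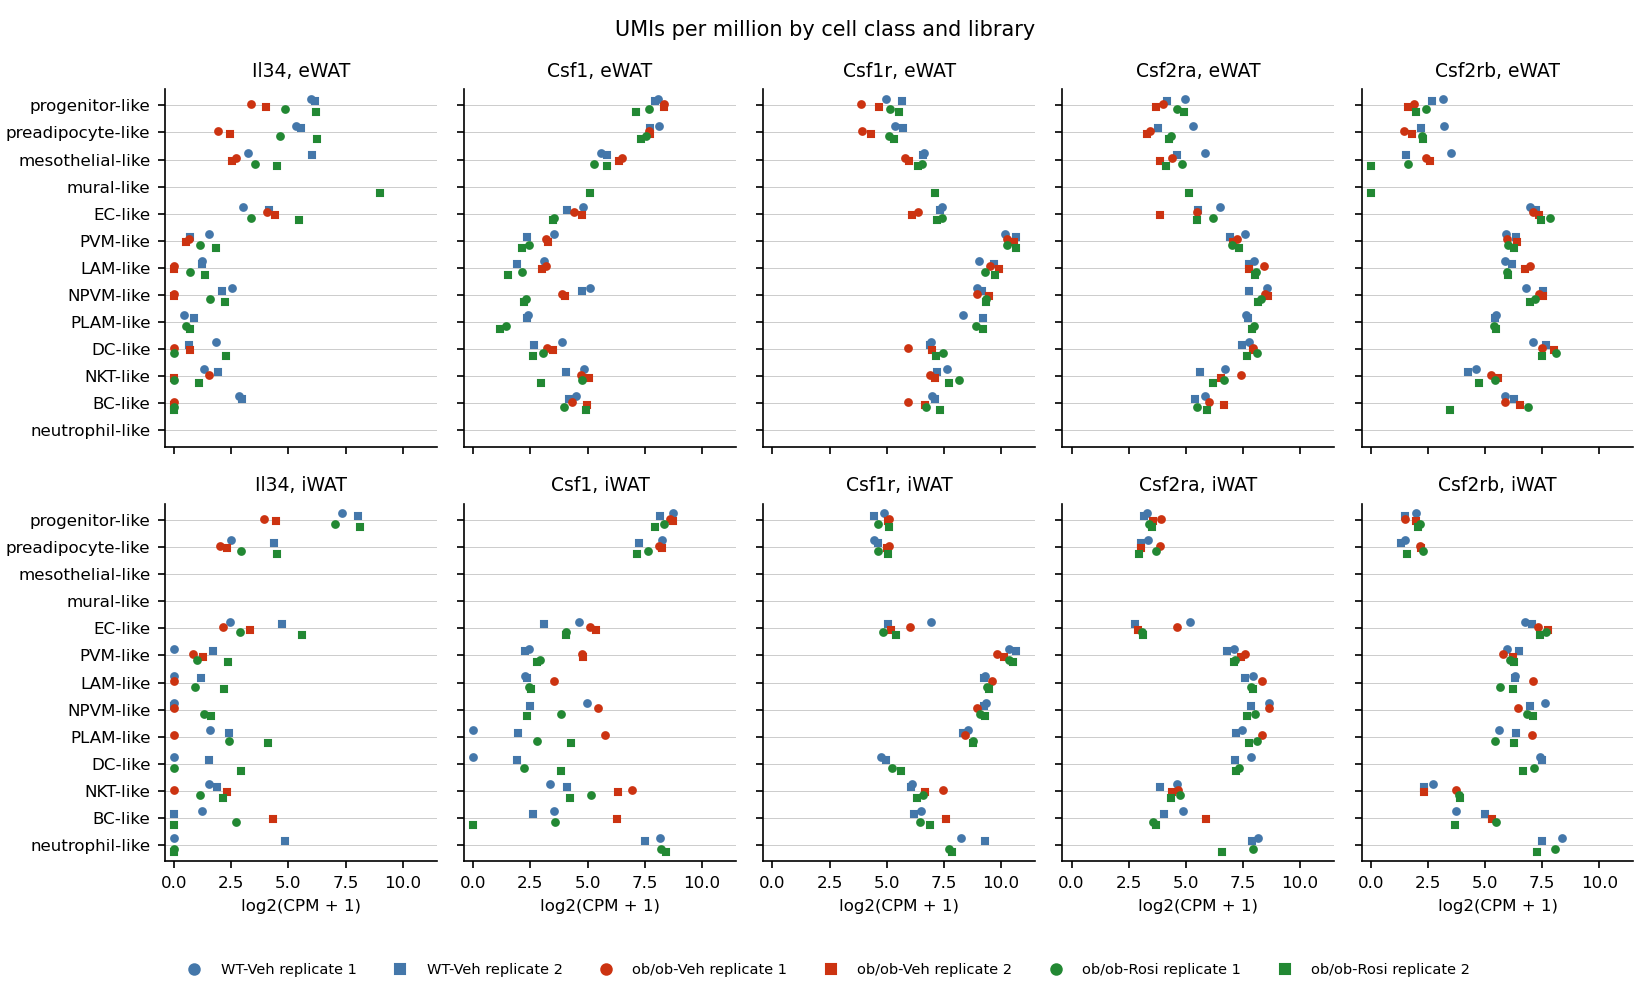
Each point is the level of a gene in a named cell class of a library, as log2(CPM + 1), for eWAT (top) and iWAT (bottom). Colours give the group and symbols the replicate, and libraries with fewer than 20 cells of a class are not drawn. Apart from a mural-like point for Il34 and the iWAT neutrophil-like points for Csf1, the points farthest right belong to progenitor-like or preadipocyte-like cells for both ligands, to PVM-like cells for Csf1r and to NPVM-like cells for Csf2ra.

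By the median over libraries, Il34 stood highest in progenitor-like cells of both depots among the classes present in at least 4 libraries. In eWAT this median was 44.9 CPM in progenitor-like, 31.6 in preadipocyte-like, 16.3 in EC-like (endothelial) and 9.39 in mesothelial-like cells, and the ranges of neighbours in this order overlapped. This order did not hold in every group, since both eWAT ob/ob-Veh libraries held more Il34 in EC-like than in progenitor-like cells. Every other eWAT class had a median of at most 2.61 CPM. In iWAT the medians were 148 CPM in progenitor-like, 7.62 in EC-like and 5.53 in preadipocyte-like cells. Mural-like cells of eWAT held 1 to 30 Il34 UMIs per library, but a library with at least 20 such cells existed only for ob/ob-Rosi replicate 2, where Il34 stood at 509 CPM in 37 cells. No mural-like class was named in iWAT. In a finer clustering an eWAT cluster with 8 EC markers up also had 5 mural markers up. The part of mural cells in the Il34 level of EC-like cells was not tested.

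In eWAT, Il34 fell in progenitor-like and preadipocyte-like cells of ob/ob-Veh mice and rose with rosiglitazone. Progenitor-like cells held 61.8 and 69.8 CPM in the WT-Veh libraries, 9.17 and 15.2 in ob/ob-Veh and 28.0 and 72.9 in ob/ob-Rosi. Preadipocyte-like cells held 39.7 and 45.7 CPM in WT-Veh, 2.75 and 4.45 in ob/ob-Veh and 23.5 and 74.8 in ob/ob-Rosi. Both ob/ob-Veh libraries thus lay under all other libraries in both classes, and the 2 ob/ob-Rosi libraries enclosed the WT-Veh values.

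By edgeR's quasi-likelihood test with Benjamini-Hochberg adjustment over all genes of a class, the fall of Il34 in eWAT ob/ob-Veh progenitor-like cells was a log2 fold change of -2.48 (SE 0.37, adjusted p = 0.00159). With rosiglitazone it was 2.03 (SE 0.39, adjusted p = 0.00885). In preadipocyte-like cells the log2 fold changes were -3.65 (SE 0.50, adjusted p = 0.00201) and 3.86 (SE 0.50, adjusted p = 0.00148). A fall was also called in eWAT mesothelial-like cells (-2.86, SE 0.66, adjusted p = 0.0408), the cells that line the fat pad. The values were 8.26 and 64.6 CPM in WT-Veh, 5.58 and 4.80 in ob/ob-Veh and 10.5 and 21.4 in ob/ob-Rosi, so WT-Veh replicate 2 lay far above the other libraries. The call was lost without any of 5 of the 6 libraries, with a log2 fold change of -0.77 (adjusted p = 0.770) without WT-Veh replicate 2 and -3.02 to -2.69 (adjusted p = 0.0551 to 0.0724) without either library of ob/ob-Veh or ob/ob-Rosi. It was also lost without Scrublet's doublets (-1.69, adjusted p = 0.219). In EC-like cells the groups overlapped, at 6.99 and 17.0, 15.5 and 19.997, and 9.29 and 43.7 CPM, with log2 fold changes of 0.32 (SE 0.63) and 0.79 (SE 0.57) that were not called.

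These differences rest on few molecules per cell. The eWAT Il34 values come from 32 to 112 UMIs per library in progenitor-like and 36 to 803 in preadipocyte-like cells. With every cell thinned to 700 UMIs, 3.30% and 2.70% of eWAT progenitor-like cells had an Il34 UMI in WT-Veh, 0.853% and 1.45% in ob/ob-Veh and 1.96% and 3.74% in ob/ob-Rosi. In PVM-like cells, which should lack the gene, at most 0.129% did in any library. Unthinned, the shares in progenitor-like cells were 9.43% and 20.9%, 5.42% and 7.84%, and 6.85% and 19.3%, at median depths of 1391 to 7887.5 UMIs, and in PVM-like cells 0.211% to 1.13%. With thinned cells the calls in progenitor-like cells were lost (log2 fold changes of -1.60, adjusted p = 0.0847, and 1.38, adjusted p = 0.222, by edgeR), and the rosiglitazone call was also lost without ob/ob-Rosi replicate 2 (1.27, adjusted p = 0.127). In preadipocyte-like cells both calls held in every alternative run. Over all APC-like cells together, without the split, eWAT Il34 was 42.2 and 50.3 CPM in WT-Veh, 5.83 and 7.44 in ob/ob-Veh and 23.5 and 70.2 in ob/ob-Rosi (log2 fold changes of -2.86, adjusted p = 0.00422, and 2.89, adjusted p = 0.00404, by edgeR).

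**Figure D2:**
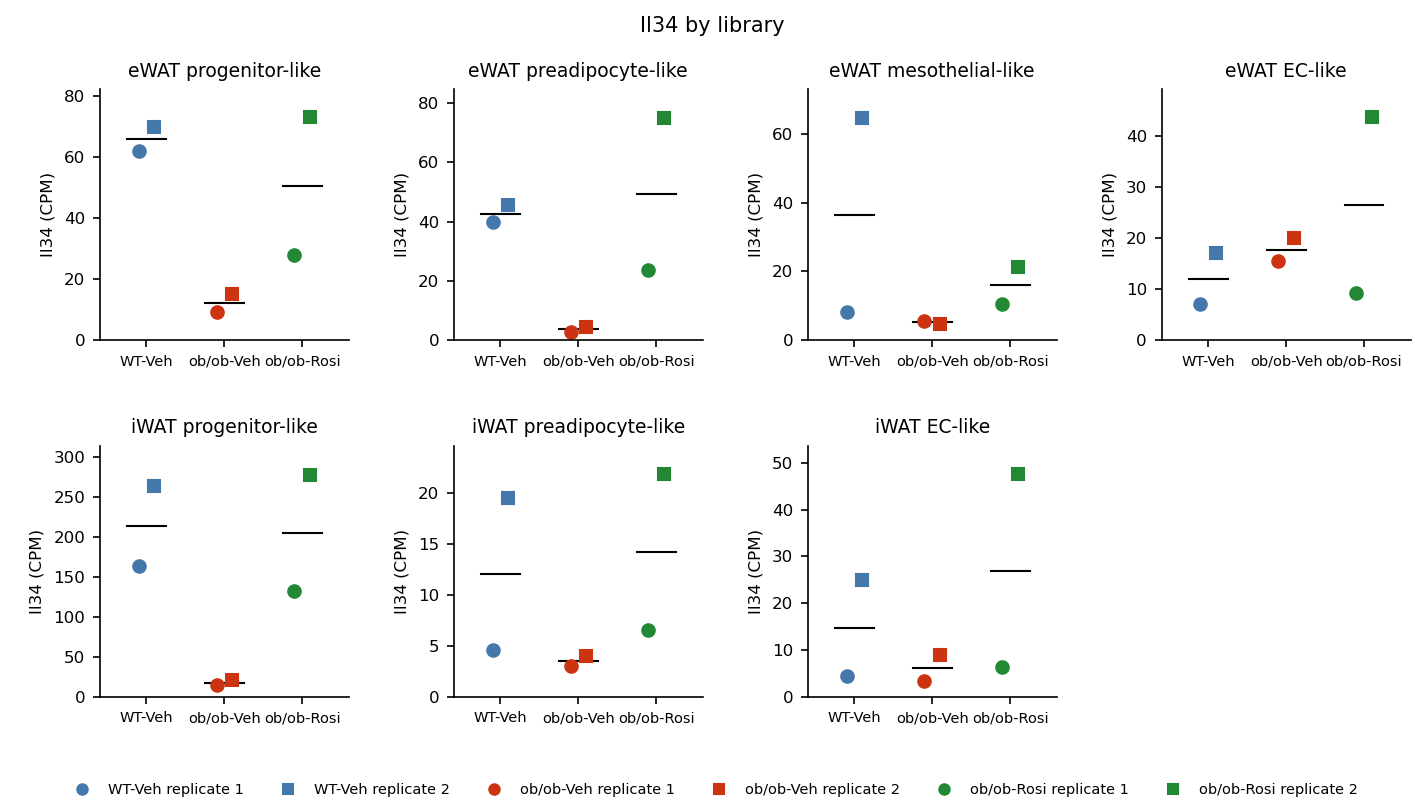
Il34 in CPM (y axis, from 0) in each library, by group, for 4 classes of eWAT and 3 of iWAT. Circles are replicate 1, squares replicate 2 and black lines the mean of the 2 libraries. In progenitor-like and preadipocyte-like cells the ob/ob-Veh libraries lie lowest.

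In iWAT, from which Il34 was chosen, progenitor-like cells held 163.5 and 264 CPM in WT-Veh, 14.3 and 20.9 in ob/ob-Veh and 132 and 278 in ob/ob-Rosi. The ratio of the group means was -3.60 on the log2 scale for ob/ob-Veh against WT-Veh and 3.54 for ob/ob-Rosi against ob/ob-Veh. Of the progenitor-like cells thinned to 700 UMIs, 5.65% and 16.1%, 0.847% and 1.14%, and 7.18% and 17.1% had an Il34 UMI, against at most 0.324% of PVM-like cells in any library. Unthinned, the shares were 39.5% and 60.3%, 4.94% and 4.83%, and 40.7% and 55.8%, and in PVM-like cells at most 1.20%. Without WT-Veh replicate 1, the library that stands apart, the ob/ob-Veh ratio was -3.91. Preadipocyte-like cells of iWAT held 4.56 and 19.5 CPM, 3.00 and 3.96 CPM, and 6.501 and 21.9 CPM in the same order. The progenitor-like cells lay in different sub-clusters, by group and by replicate. The sub-cluster led by Il1r2, Sema3e and Chst1 held 66.6% of the iWAT ob/ob-Veh cells. Both sub-clusters led by Dmkn, Sbsn and Krtdap held cells of the other groups: one held 114 of 124 cells of WT-Veh replicate 1 and 769 of 877 of ob/ob-Rosi replicate 1, the other 1056 of 1974 cells of WT-Veh replicate 2 and 1843 of 3329 of ob/ob-Rosi replicate 2.

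Il34 was therefore also read within sub-clusters. In the eWAT sub-cluster led by Pi16, Igfbp5 and Sfrp4 it stood at 82.3 and 107 CPM in WT-Veh and 40.8 and 136 in ob/ob-Rosi, and no ob/ob-Veh library had 20 cells there. The sub-clusters that ob/ob-Veh cells filled in place of it, led by Nov, Pi16 and Efhd1 and by Ptgs2, Has1 and Tnfaip6, held 9.18 to 15.5 CPM. The eWAT sub-cluster led by Cpxm2, Mfap4 and Wisp2 was shared by the 3 groups, but unevenly. It took 50.4% of WT-Veh and 51.7% of ob/ob-Rosi progenitor-like cells, against 18 of 1642 and 55 of 689 in the ob/ob-Veh libraries. The part of this uneven make-up in the eWAT progenitor-like differences, of Il34 and of other genes, was not tested. In this sub-cluster Il34 was 27.7 and 23.8 CPM in WT-Veh, 18.2 in ob/ob-Veh replicate 2 (5 UMIs) and 9.44 and 37.5 in ob/ob-Rosi. The single ob/ob-Veh value lay inside the range of the others. An unnamed eWAT sub-cluster led by Cd74, H2-Eb1 and H2-Aa was shared too. It held 39.7 CPM in WT-Veh replicate 1, 4.44 and 3.36 in ob/ob-Veh (2 and 1 UMIs) and 4.06 and 34.6 in ob/ob-Rosi. In the eWAT preadipocyte-like sub-clusters the 3 of ob/ob-Veh, led by C7, Trf and Il6, held 2.24 to 4.56 CPM and the 3 of WT-Veh and ob/ob-Rosi 22.6 to 78.4 CPM. In iWAT few sub-clusters were shared. Several of their values come from 0 or 1 UMIs in 20 to 43 cells, so they cannot show whether the groups had a common order. An unnamed one led by Mrc1, Clec10a and Cd163 held 0 CPM in WT-Veh replicate 2, 5.88 and 5.21 in ob/ob-Veh and 16.5 and 71.8 in ob/ob-Rosi. The progenitor-like one led by Ptgs2, Has1 and Sema3e held 15.1 and 24.3 CPM in ob/ob-Veh and 56.7 in ob/ob-Rosi replicate 1, the last from 6 UMIs in 21 cells. In the preadipocyte-like one led by Sult1e1, C7 and Gas6 it was 3.11 and 3.91 CPM in ob/ob-Veh and 0 in 43 cells of ob/ob-Rosi replicate 1. The ob/ob-Veh replicate 2 cells of the one led by Ndufa4l2, Nrep and Fbln7 held 7.40 CPM (1 UMI), inside the 0 to 24.7 CPM of the other libraries, and those of the one led by Cilp, Mgp and Inmt held no Il34 UMI, like ob/ob-Rosi replicate 1, whereas the other libraries held Il34 at up to 29.1 CPM.

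**Figure D3:**
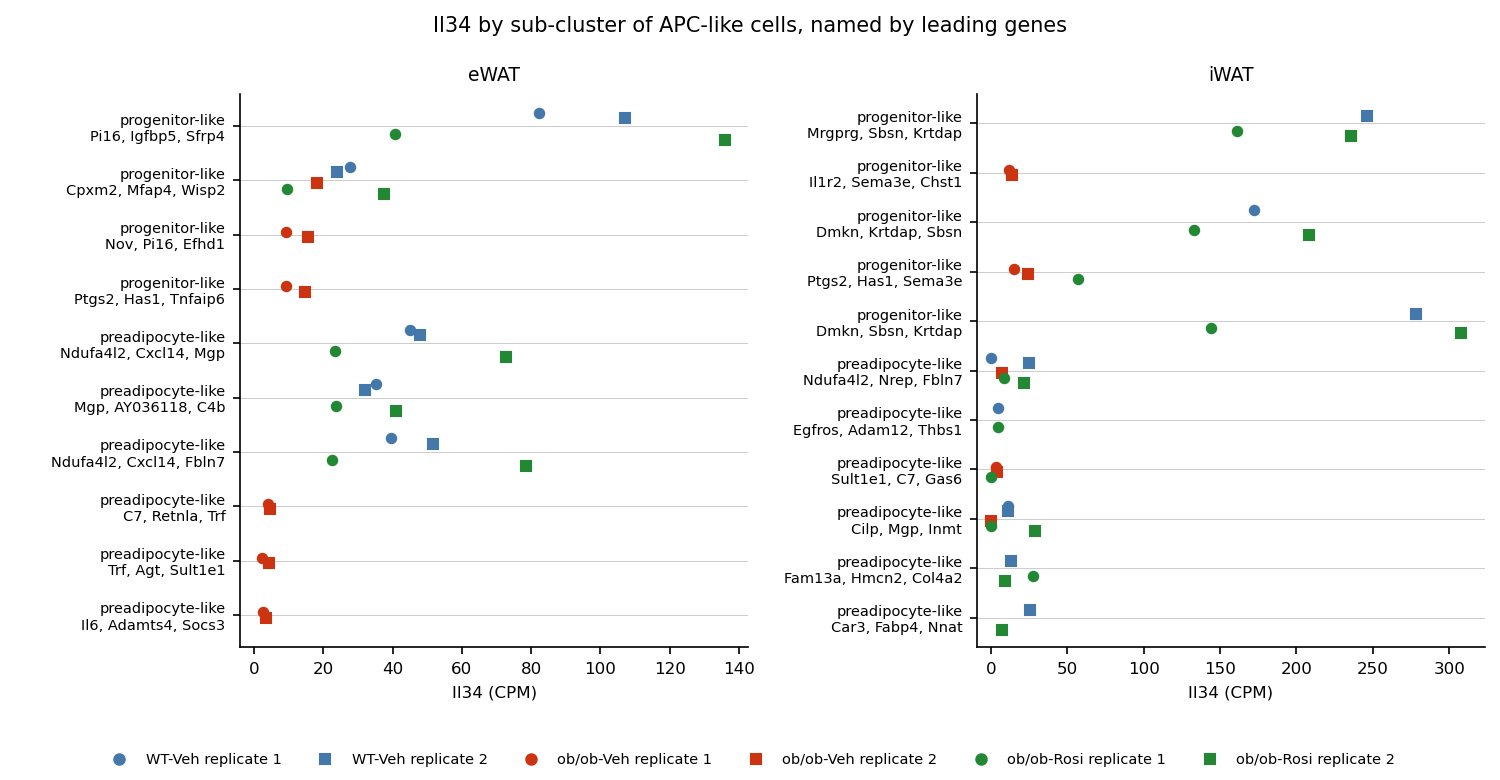
Il34 in CPM (x axis) in each progenitor-like and preadipocyte-like sub-cluster of eWAT (left) and iWAT (right), named by its 3 leading genes. Points are libraries with at least 20 cells in the sub-cluster. Few sub-clusters hold red ob/ob-Veh points together with points of another group.

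Csf1 followed another pattern: it was high in APC-like cells of every group, and no difference in these cells was called without a replicate block. In eWAT progenitor-like cells Csf1 stood at 274 and 246 CPM in WT-Veh, 327 and 323 in ob/ob-Veh and 204 and 140 in ob/ob-Rosi. In eWAT preadipocyte-like cells it was 283 and 211, 203 and 212, and 189 and 160 CPM. The log2 fold changes of ob/ob-Veh against WT-Veh were 0.32 (SE 0.29) and -0.34 (SE 0.27), and those of ob/ob-Rosi against ob/ob-Veh -0.91 (SE 0.29, adjusted p = 0.112) and -0.18 (SE 0.27). A replicate block made the fall of Csf1 with rosiglitazone in eWAT progenitor-like cells a call (-0.93, edgeR adjusted p = 0.0311). In iWAT progenitor-like cells it was 432.5 and 289, 394 and 426, and 321 and 246 CPM, and in preadipocyte-like cells 306 and 152, 280 and 309, and 201 and 142 CPM, with overlapping WT-Veh and ob/ob-Veh groups. The iWAT log2 fold changes lay between -0.73 (SE 0.36) and 0.36 (SE 0.37).

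Outside the APC-like cells, Csf1 had medians of 57.0 CPM in eWAT mesothelial-like cells and 26.1 or less in the other classes present in at least 4 libraries, apart from neutrophil-like cells of iWAT. These held 284 and 180 CPM in WT-Veh and 293 and 342 in ob/ob-Rosi from 12 to 29 Csf1 UMIs per library. The summed level of 6 APC markers (named below) in these neutrophil-like cells was 1822 and 13637 CPM in WT-Veh and 4479 and 6656 in ob/ob-Rosi, and its part in their Csf1 level was not tested. The ob/ob-Veh libraries held only 5 and 6 such cells, with no Csf1 UMI in 4304 and 8683 UMIs, which allows up to 697 and 346 CPM (a limit of 3 UMIs, for counting error alone).

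Csf1 was called higher in PVM-like cells of iWAT ob/ob-Veh mice. These cells held 4.42 and 3.84 CPM in WT-Veh, 25.7 and 26.5 in ob/ob-Veh and 6.66 and 5.91 in ob/ob-Rosi, so the ob/ob-Veh libraries lay apart. The log2 fold change was 2.51 (SE 0.29, edgeR adjusted p = 0.00379), and -1.89 with rosiglitazone (SE 0.27, adjusted p = 0.0138). In iWAT NKT-like cells (T, NK and innate lymphoid cells) Csf1 stood at 9.21 and 16.3, 123 and 80.2, and 34.3 and 17.9 CPM, a log2 fold change of 2.63 for ob/ob-Veh against WT-Veh (SE 0.53, adjusted p = 0.0429). Each of the ob/ob-Veh values rests on 20 NKT-like UMIs of Csf1, and without WT-Veh replicate 1 the Csf1 calls held, at 2.51 in PVM-like and 2.16 in NKT-like cells. The PVM-like calls were lost without ob/ob-Veh replicate 1 (2.42, adjusted p = 0.0638, and -1.80, adjusted p = 0.199), the rosiglitazone one also when replicate 2 of either ob/ob group was left out, and the NKT-like call without either ob/ob-Veh library (2.26 and 2.86, adjusted p = 0.473 and 0.237).

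The markers of APCs moved with Csf1 in these 2 classes. The summed level of the 6 APC markers (Pdgfra, Dcn, Col1a1, Lum, Gsn and Dpt) in iWAT PVM-like cells was 743 and 803 CPM in WT-Veh, 4870 and 4701 in ob/ob-Veh and 1421 and 1691 in ob/ob-Rosi, with no marker at 0. In NKT-like cells it was 1396 and 1024, 9873 and 9319, and 3002 and 2406 CPM. In progenitor-like cells the same sum was 24607 to 40441 CPM. In iWAT EC-like cells Csf1 was also highest in ob/ob-Veh, at 34.0 and 40.9 CPM against 23.5 and 7.57 in WT-Veh, without a call. So it was in classes too small to test. Their ob/ob-Veh library with 20 cells held 76.4 CPM in B-cell-like, 54.1 in PLAM-like, 42.8 in NPVM-like and 10.4 in LAM-like cells. The WT-Veh libraries held 10.4 and 5.12, 0 and 2.85, 30.9 and 4.57, and 3.78 and 4.13. The APC marker sum was highest in ob/ob-Veh there too. The part of these markers in the Csf1 results was not tested. In eWAT, where the sum was 898 to 1553 CPM in PVM-like cells, Csf1 in PVM-like cells gave log2 fold changes of 0.08 (SE 0.42) and -0.96 (SE 0.49). The difference of the ob/ob-Veh effect on Csf1 between depots was 2.38 in PVM-like cells (SE 0.53, edgeR interaction test, adjusted p = 0.0704), which was not called.

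Csf1r was highest in the macrophage-like classes, and no difference was called in those tested (PVM-like, LAM-like and NPVM-like in eWAT, PVM-like in iWAT). In eWAT its medians were 1376 CPM in PVM-like, 789 in LAM-like, 608 in NPVM-like and 533 in PLAM-like cells, and in iWAT 1308, 674, 608 and 373 CPM in the same order. In both depots the lowest PVM-like library lay above the highest LAM-like one. The eWAT PVM-like cells held 1156 and 1633 CPM in WT-Veh, 1219 and 1517 in ob/ob-Veh and 1235 and 1616 in ob/ob-Rosi, so the groups overlapped. The log2 fold changes were -0.14 (SE 0.28) and 0.20 (SE 0.28). In iWAT PVM-like cells it was 1314 and 1632, 906 and 1125, and 1302 and 1473 CPM, with both ob/ob-Veh libraries lowest but log2 fold changes of -0.71 (SE 0.31, adjusted p = 0.195) and 0.63 (SE 0.31, adjusted p = 0.206). Of the cells thinned to 700 UMIs, 55.6% to 67.6% of eWAT and 43.1% to 64.5% of iWAT PVM-like cells had a Csf1r UMI, and unthinned 86.0% to 98.0% and 69.1% to 97.1%. An iWAT neutrophil-like class had a median of 268 CPM of Csf1r over 4 libraries, with a summed level of 8 macrophage markers of 4206 to 6751 CPM whose part in it was not tested.

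Differences in Csf1r were called in eWAT classes not named as macrophage-like. Preadipocyte-like cells held 40.7 and 51.0 CPM in WT-Veh, 14.3 and 19.0 in ob/ob-Veh and 33.7 and 39.2 in ob/ob-Rosi. The log2 fold changes were -1.54 (SE 0.24, edgeR adjusted p = 0.00410) and 1.22 with rosiglitazone (SE 0.24, adjusted p = 0.0123). EC-like cells held 173 and 159, 81.4 and 67.5, and 172 and 148 CPM, with -1.28 (SE 0.25, adjusted p = 0.0218) and 1.22 (SE 0.24, adjusted p = 0.0207). In both classes the 2 ob/ob-Veh libraries lay under the other 4. Against PVM-like cells these levels were low, and with thinning 1.42% to 3.81% of preadipocyte-like and 3.94% to 9.20% of EC-like cells had a Csf1r UMI (6.33% to 20.5% and 15.02% to 25.3% unthinned). The EC-like calls were lost with thinned cells (-0.86, adjusted p = 0.169, and 0.64, adjusted p = 0.379), without Scrublet's doublets, and without either ob/ob-Veh library, and the first also without either WT-Veh library. In preadipocyte-like cells the call in ob/ob-Veh was lost without ob/ob-Veh replicate 1 (-1.43, adjusted p = 0.0841) and the call with rosiglitazone with thinned cells (0.94, adjusted p = 0.0985) or without any of 3 libraries (either ob/ob-Veh library, or replicate 2 of ob/ob-Rosi).

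The 8 macrophage markers (Adgre1, Cd68, C1qa, C1qb, C1qc, Fcgr1, Lyz2 and Ms4a7) moved with Csf1r there. In both classes 8 of 8 were called lower in ob/ob-Veh and higher with rosiglitazone, and none was at 0. Their summed level in eWAT preadipocyte-like cells was 1962 and 1375 CPM in WT-Veh, 222 and 444 in ob/ob-Veh and 1624 and 1454 in ob/ob-Rosi. In EC-like cells it was 5250 and 4088, 1698 and 1152, and 6310 and 4998 CPM, against 13883 to 34022 in PVM-like cells. An EC-like cluster had 7 of the 8 markers 2-fold or more over the median of the other clusters. It held 195 and 190 cells in WT-Veh, 40 and 89 in ob/ob-Veh and 230 and 226 in ob/ob-Rosi. The summed level of 6 adipocyte transcripts (such as Adipoq and Plin1) in EC-like cells was 42 and 49, 1377 and 1182, and 23 and 22 CPM. The part of the macrophage markers, this cluster and adipocyte RNA in the Csf1r differences was not tested. The same 8 markers were lower in ob/ob-Veh progenitor-like cells, where Csf1r was 30.3 and 49.96, 13.6 and 24.3, and 34.1 and 45.2 CPM (log2 fold changes of -1.16, SE 0.32, adjusted p = 0.0519, and 1.09, SE 0.33, adjusted p = 0.0906).

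**Figure D4:**
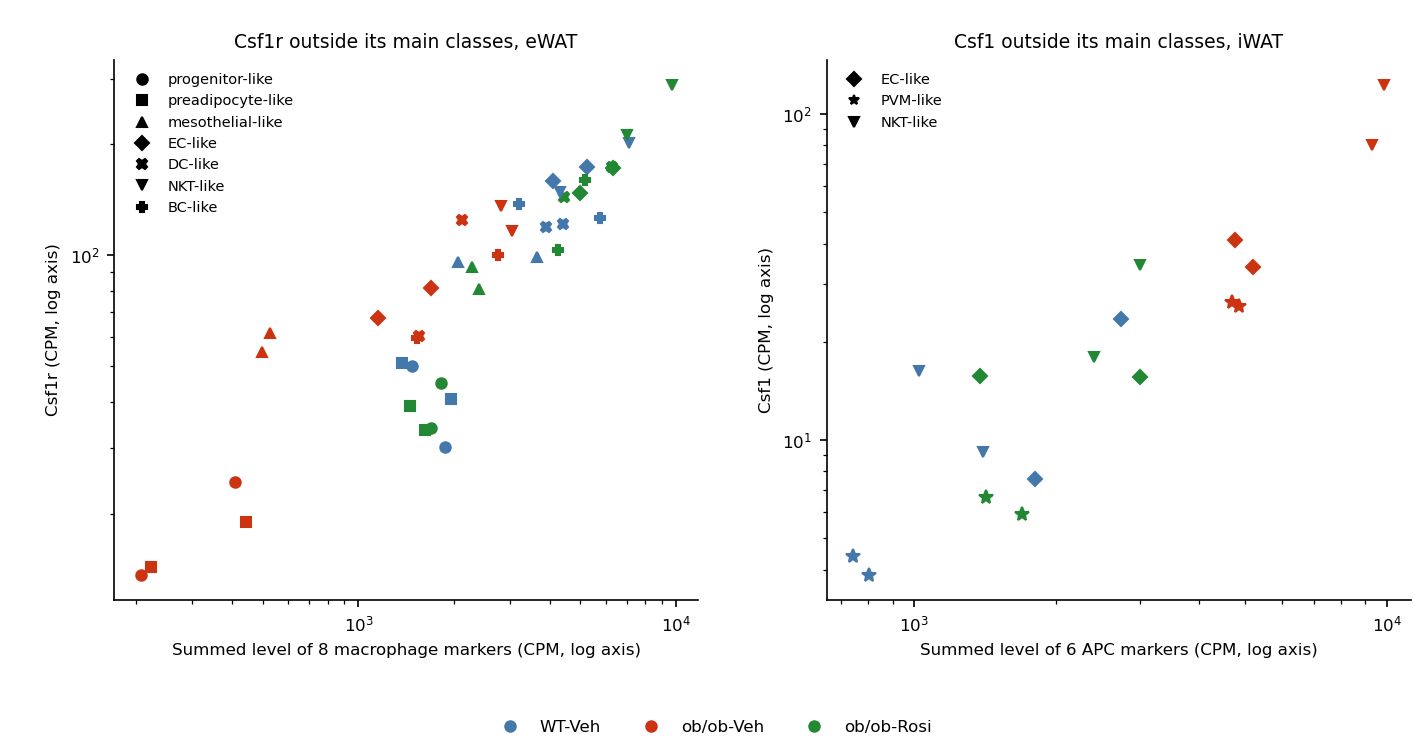
Left, Csf1r against the summed level of 8 macrophage markers in eWAT classes other than macrophage-like cells, and right, Csf1 against the summed level of 6 APC markers in iWAT classes other than APC-like cells. Both axes are CPM on a log scale, points are libraries, shapes give the class and colours the group. In preadipocyte-like and EC-like cells (left) the ob/ob-Veh points lie lowest on both axes, and in PVM-like and NKT-like cells (right) they lie highest on both.

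Csf2ra and Csf2rb spread over more classes. Among the named classes Csf2ra, the chain that binds the ligand, had eWAT medians of 335 CPM in NPVM-like, 257 in LAM-like, 229 in DC-like (dendritic) and 140 in PVM-like cells, and in iWAT 258, 243, 153 and 140 CPM. The median was 224 CPM in eWAT and 215 in iWAT PLAM-like cells, and 239 in iWAT neutrophil-like cells. Macrophage-like clusters that took no name of a kind held more than any of these, with medians of 450 CPM in eWAT and 312 CPM in iWAT. In eWAT NPVM-like cells the libraries held 376 and 218 CPM in WT-Veh, 356 and 390 in ob/ob-Veh and 314 and 281 in ob/ob-Rosi, with overlapping WT-Veh and ob/ob-Veh groups. The log2 fold changes of Csf2ra there were 0.17 (SE 0.33) and -0.23 (SE 0.32). In DC-like cells it was 218 and 174, 246 and 241, and 279 and 203 CPM. Of NPVM-like cells thinned to 700 UMIs, 16.6% to 25.8% had a Csf2ra UMI, against 0.726% to 2.67% of eWAT progenitor-like cells (36.6% to 62.9% and 5.43% to 10.7% unthinned).

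Csf2rb, the signalling chain, was found in endothelial cells as well as in myeloid cells. Its eWAT medians were 193 CPM in DC-like, 157 in EC-like and 154 in NPVM-like cells, with overlapping ranges, and 3.67 or less in progenitor-like, preadipocyte-like and mesothelial-like cells. In eWAT EC-like cells Csf2rb stood at 124 and 151 CPM in WT-Veh, 136 and 162 in ob/ob-Veh and 228 and 175 in ob/ob-Rosi. The log2 fold changes were -0.02 (SE 0.25) and 0.54 (SE 0.24, adjusted p = 0.245). In iWAT it was highest in neutrophil-like cells (median 221 CPM), followed by EC-like (163), DC-like (155) and NPVM-like cells (123). With thinning, 5.88% to 12.8% of eWAT EC-like cells had a Csf2rb UMI, against at most 0.708% of progenitor-like cells (22.7% to 44.9% and 1.07% to 2.37% unthinned). Csf2ra had a median of 44.8 CPM in eWAT and 7.62 in iWAT EC-like cells, where the macrophage marker sum was 1152 to 6310 and 656 to 2317 CPM. The paralog Csf2rb2 rose with rosiglitazone in eWAT EC-like cells, from 15.5 and 21.0 CPM in ob/ob-Veh to 59.2 and 36.5 (log2 fold change 1.45, SE 0.32, adjusted p = 0.0289).

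Over the 5 genes and the 10 eWAT classes with at least 20 cells in every library, 42 of 50 pairs of a gene and a class passed the filter on low counts. Pairs that differed by 1.1-fold or more with an adjusted p no higher than 0.05 were called. Of the 42, 5 were called in ob/ob-Veh against WT-Veh, all lower (11.9%), where 3.35% of all gene and class pairs were called. With rosiglitazone 4 were called, all higher (9.52%), against 3.18% of all pairs. Il34, whose iWAT values chose it, gave 3 of the 5 and 2 of the 4 from 5 pairs tested, and if the same mice gave both depots its eWAT test is not independent of that choice. The 4 other genes gave 2 of 37 in either comparison (5.41%). The 5 and the 4 became 2 and 1 with thinned cells, 10 and 8 without the filter on low counts, and 3 in ob/ob-Veh without ob/ob-Veh replicate 1. A replicate block raised both counts, as given in the last section, and 9.11% and 8.39% of all pairs were then called. With rosiglitazone 2 were called without replicate 2 of either ob/ob group and 6 without ob/ob-Rosi replicate 1. These 2 comparisons share the ob/ob-Veh libraries, so a library that is low by chance enters both. In iWAT, 20 of 25 pairs were tested, the 5 of Il34 being left out. There 2 were called in ob/ob-Veh, both higher (10.0%), against a background of 1.86%, and 1 with rosiglitazone, lower (5.0%), against 3.19%. For ob/ob-Veh the iWAT count was 1 with thinned cells, 0 without ob/ob-Veh replicate 1 (2 at an unadjusted p under 0.05 by edgeR), 1 without ob/ob-Veh replicate 2 and 4 without WT-Veh replicate 2. With rosiglitazone it was 2 without either WT-Veh library, and 0 without either ob/ob-Veh library or ob/ob-Rosi replicate 2 (1 or 2 at an unadjusted p under 0.05).

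With ob/ob-Rosi set against WT-Veh, the count called by edgeR was 0 of 42 pairs in eWAT and 0 of 20 in iWAT, with 3 and 1 at an unadjusted p under 0.05, and DESeq2 called 0 in each. Over all pairs 0.0149% and 0.0136% were called. With 2 libraries against 2, an exact permutation test of a single gene cannot give a p under 0.33, so the calls rest on the spread pooled over groups and genes.

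**Figure D5:**
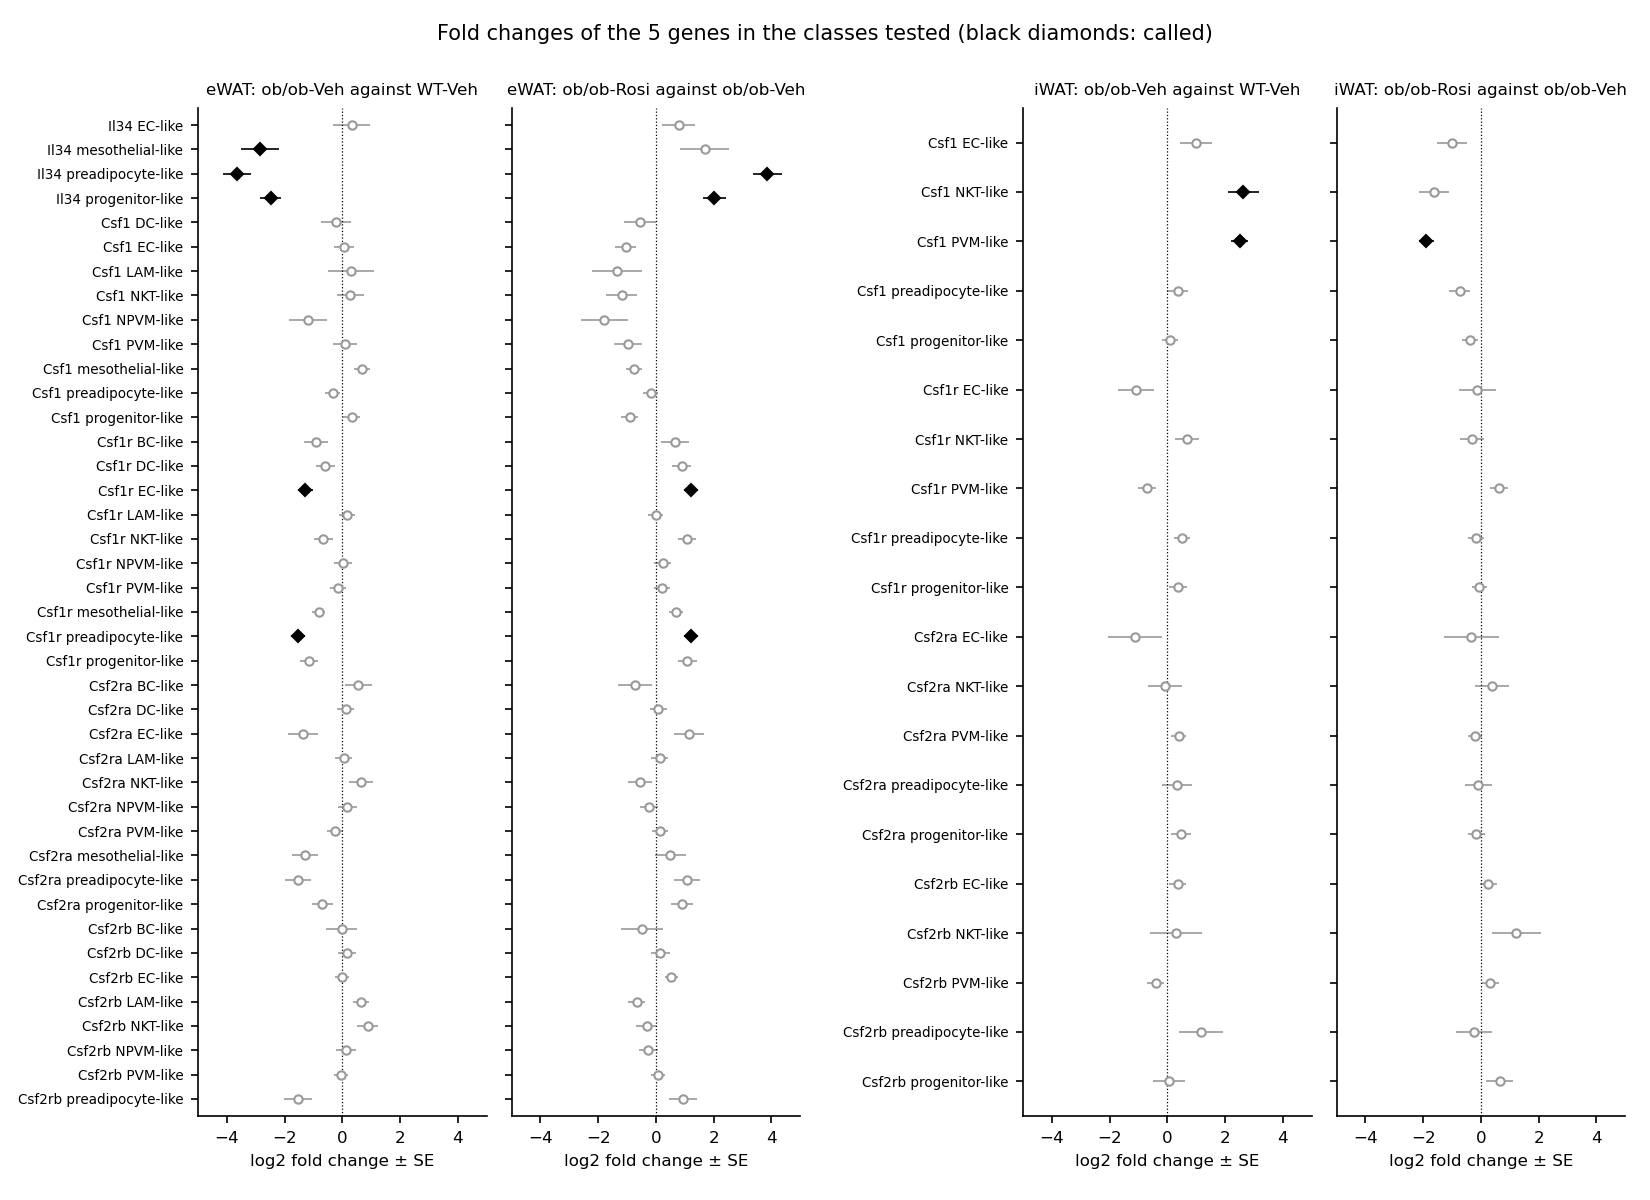
Log2 fold change with its SE (x axis) for every tested pair of a gene and a class, in eWAT (2 left panels) and iWAT (2 right panels), for ob/ob-Veh against WT-Veh and ob/ob-Rosi against ob/ob-Veh. Black diamonds are called pairs and open circles are not. In eWAT the 5 called pairs of the first panel lie below 0 and the 4 of the second above 0. Il34 in LAM-like cells, which had no UMI in ob/ob-Veh, is not drawn.

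The effects were set against each other between depots for the 4 genes other than Il34, in the 5 classes tested in both. Of 20 pairs, 1 was called for the ob/ob-Veh effect (all pairs, 0.52%), 0 for the rosiglitazone effect (0.381%) and 0 for ob/ob-Rosi against WT-Veh (0.0%), with 8, 4 and 2 at an unadjusted p under 0.05 by edgeR. The called pair was Csf1r in preadipocyte-like cells, where the ob/ob-Veh effect was -1.54 in eWAT and 0.51 (SE 0.29) in iWAT, a difference of 2.05 (SE 0.34, adjusted p = 0.0219). The iWAT preadipocyte-like values of Csf1r were 21.0 to 33.5 CPM over the 6 libraries. There the macrophage marker sum was 550 and 479 CPM in WT-Veh, 741 and 670 in ob/ob-Veh and 824 and 708 in ob/ob-Rosi, without the fall seen in eWAT. The class was not made of like sub-clusters in the 2 depots. In iWAT the sub-cluster led by Cilp, Mgp and Inmt was 36.0% of WT-Veh preadipocyte-like cells. The one led by Sult1e1, C7 and Gas6 was 93.5% of the ob/ob-Veh ones. In eWAT a sub-cluster that likewise had Mgp, Fxyd6, Wisp2 and Ctgf among its leading genes was named progenitor-like. The part of this in the depot difference was not tested.

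The other genes of the pathway were 52 ligands, receptors, kinases, adaptors, transcription factors and shedding enzymes, of which 49 were tested in at least 1 eWAT class. In eWAT, 29 of 404 tests were called in ob/ob-Veh (9 higher and 20 lower, 7.18%), although the median log2 fold change was 0.21, and 30 with rosiglitazone (19 higher and 11 lower, 7.43%), with a median of -0.20. Over all genes tested the medians were -0.01 and 0.01, and 3.35% and 3.18% of all pairs were called. In iWAT, 2 of 226 (0.885%) and 6 (2.65%) were called, each share under the 1.86% and 3.19% called over all pairs. No test of the list was called between ob/ob-Rosi and WT-Veh in either depot.

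Among the binding partners of IL-34, Sdc1 (syndecan-1) fell in eWAT ob/ob-Veh preadipocyte-like cells, from 65.8 and 69.7 CPM to 9.63 and 12.3, and rose to 58.6 and 110 with rosiglitazone (log2 fold changes of -2.71 and 3.03, both SE 0.32, adjusted p = 0.00095 and 0.000567). Progenitor-like cells held Sdc1 at 19.7 and 17.8, 2.13 and 4.23, and 25.3 and 21.9 CPM. Ptprz1 was called in both comparisons in iWAT progenitor-like cells (log2 fold changes of -5.16, SE 1.01, and 5.18, SE 0.94, edgeR adjusted p = 0.0416 and 0.0213). Its levels were 14.9 and 3.65, 0.0679 and 0.354, and 9.80 and 3.47 CPM, so low in ob/ob-Veh that the size of the change is uncertain. The first of these values is from the 124 cells of WT-Veh replicate 1. In eWAT mesothelial-like cells it was called only in ob/ob-Veh against WT-Veh, at 101 and 21.5, 10.7 and 12.4, and 48.4 and 45.2 CPM. In both of these classes the ob/ob-Veh libraries lay under the other 4.

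The feedback inhibitors Socs1 and Socs3, which dampen JAK and STAT signals, went the other way in eWAT. In progenitor-like cells Socs1 stood at 11.8 and 15.1 CPM in WT-Veh, 95.3 and 108 in ob/ob-Veh and 13.1 and 5.83 in ob/ob-Rosi (log2 fold changes 2.89, SE 0.32, and -3.31, SE 0.35, adjusted p = 0.000257 and 0.000247). Socs3 was 104 and 194, 703 and 664, and 83.0 and 68.6 CPM there, and both genes were called in the same directions in preadipocyte-like cells. Cish, a related inhibitor induced by STAT5, stood at 4.57 and 5.30, 26.3 and 30.6, and 5.19 and 1.55 CPM in eWAT DC-like cells. The summed level of 10 genes of the response to digestion (Fos, Jun, Egr1 and others) in eWAT progenitor-like cells was 4574 and 4904, 14208 and 12367, and 6029 and 2685 CPM. It was 6868 and 8730, 13742 and 11378, and 7759 and 5280 CPM in preadipocyte-like cells, and 3850 and 3991, 8657 and 7258, and 3558 and 4257 CPM in DC-like cells. In these 3 classes both ob/ob-Veh libraries thus lay highest, and the part of this response in the Socs1, Socs3 and Cish results, and in those of Il34 and Sdc1 in the same APC-like cells, was not tested.

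Of the 20 falls in eWAT ob/ob-Veh, 8 were of genes known from macrophages, in other classes. Spi1, which encodes the macrophage factor PU.1, and Tyrobp, an adaptor of myeloid receptors, were each called lower in progenitor-like, preadipocyte-like, mesothelial-like and EC-like cells. The macrophage marker sum fell there too, as given above for preadipocyte-like and EC-like cells. It was 1871 and 1473, 206 and 409, and 1693 and 1815 CPM in progenitor-like cells. In mesothelial-like cells it was 3661 and 2065, 497 and 527, and 2285 and 2397 CPM. In iWAT PVM-like cells themselves Tyrobp was 668 and 1450 CPM in WT-Veh, 278 and 334 in ob/ob-Veh and 1200 and 1900 in ob/ob-Rosi (log2 fold changes of -1.97, SE 0.46, adjusted p = 0.0475, and 2.52, SE 0.47, adjusted p = 0.0223). Csf3r, the receptor of granulocyte colony-stimulating factor, was called higher in eWAT ob/ob-Veh LAM-like cells, at 24.1 and 38.9 CPM against 5.86 and 11.4 in WT-Veh, from 54 and 86 ob/ob-Veh cells.

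Across 112 sums of a class in a library, the genes whose log2(CPM + 1) was most like that of each member were found among 9060 genes. For Il34 these were Mtch1 (r = 0.81), Cdkn1c (0.81) and Npdc1 (0.80), and for Csf1 they were Loxl1 (0.93), Fstl1 (0.93) and Clec3b (0.91). Csf1r was most like Tlr7 (0.95), Adgre1 (0.94) and Ccl6 (0.94), Csf2ra most like Cd300a (0.94), Pirb (0.94) and Cd14 (0.93), and Csf2rb most like Lyn (0.89), Rassf4 (0.86) and Themis2 (0.86). These correlations describe the classes, and sums of the same library share its depth and its free RNA.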

How the data were processed

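Per the labels, the authors made 10x Genomics libraries of SVF cells and processed them with bcl2fastq 2.19.1.403 and Cell Ranger 3.0.2 on mm10. They deposited raw UMI counts per gene and barcode, without normalization. Neither a correction for free RNA nor a removal of doublets is given in the sources used here. Following the study's methods, barcodes were kept as cells if they had 200 to 6000 genes, 700 to 22000 UMIs and a mitochondrial share under 25%. Each depot was clustered without integration of libraries (scanpy 1.11.5, 2000 variable genes, 25 components, Leiden resolution 1). Clusters were named from marker lists, needing 3 markers found in 20% of cells and, except for APC sub-clusters, 2-fold over the median of the other clusters. An APC sub-cluster needed its list to be ahead of the other by 0.5 (mean log2 difference from the other APC-like cells of a library). Details of these rules were adjusted after the clusters were seen. Doublets stayed in, and an alternative left out those that Scrublet called. Its automatic threshold marked under 0.5% of the cells in 4 libraries, where the highest scores up to 5% were taken.

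Counts were summed per library and class. Classes with at least 20 cells in each of the 6 libraries of a depot, 10 in eWAT and 5 in iWAT, were fitted with edgeR 4.0.16 (R 4.3.3, TMM, filterByExpr, quasi-likelihood test, 3 residual degrees of freedom). The fits were tested on counts simulated for eWAT preadipocyte-like cells, with changes only in genes of many UMIs and no replicate effect. That test does not cover the low sums. DESeq2 1.42.0 and other alternatives were run. All 5 members were named, other pathway genes only where called, and the 3 genes most like each member. The members and all lists were chosen with earlier results of these data known. P-values measure the spread between libraries, and Il34, chosen on iWAT, was tested in eWAT only, where its test is not independent of that choice if the mice were the same. Positions are from GENCODE M21 on GRCm38, the build mm10 names. Counts of UMIs carry counting error besides.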

Additional observations from a re-analysis of the deposited data

Results flagged for a closer look

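The effect of the ob/ob-Veh label on Csf1r in preadipocyte-like cells differed between the depots by a test of the difference itself (edgeR interaction of depot and group, iWAT minus eWAT 2.05 on the log2 scale, SE 0.34, adjusted p = 0.0219). Csf1r was lower in eWAT ob/ob-Veh cells (14.3 and 19.0 CPM, against 40.7 and 51.0 in WT-Veh). In iWAT the libraries lay between 21.0 and 33.5 CPM. The sum of the 8 macrophage markers was 222 and 444 CPM in the eWAT ob/ob-Veh preadipocyte-like cells, against 1962 and 1375 in WT-Veh, with 8 of 8 called lower. In iWAT it was 741 and 670 against 550 and 479, with log2 fold changes above 0 for 6 of the 8 and a median of 0.45. The part of macrophage RNA in the difference was not tested. Neither was it tested whether the depots shared mice, or what part the unlike sub-clusters of this class in the depots had.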

How the results depend on the processing

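In the order of the effect of the ob/ob genotype, the effect of rosiglitazone, and treated obese against lean mice, 5, 4 and 0 pairs of a gene and a class were called in eWAT and 2, 1 and 0 in iWAT. Without the filter on low counts these became 10, 8 and 1 and 2, 1 and 1, with every cell thinned to 700 UMIs 2, 1 and 0 and 1, 1 and 0, and without Scrublet's doublets 3, 3 and 0 and 1, 1 and 0. DESeq2, library sizes alone and a Leiden resolution of 2 gave counts within 1.5 times these. Leaving out each library in turn, the counts ranged from 3 to 5, 2 to 6 and 0 to 0 in eWAT and from 0 to 4, 0 to 2 and 0 to 2 in iWAT. The eWAT lows came without ob/ob-Veh replicate 1 (3) and without replicate 2 of either ob/ob group (2), and the iWAT counts of 0 without ob/ob-Veh replicate 1 and, with rosiglitazone, also without replicate 2 of either ob/ob group. Without iWAT WT-Veh replicate 2 the iWAT counts were 4, 2 and 2. Over the alternatives of the called pairs, the call held in 131 cases and was lost in 32, with the direction turned in 0. The cause was not tested.

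The study's methods state that all samples belonged to a single processing batch and were sequenced together. No source says that a replicate number marks a shared mouse or a batch of its own, so the numbers were not taken as pairs. Deviations from the group means of libraries with the same number were correlated in 45 comparisons, each of 2 groups in 1 class of a depot. The median r was 0.27, from -0.06 to 0.81, and r was over 0.1 in 37 (28 of 30 in eWAT, 9 of 15 in iWAT). In iWAT r was 0.42 to 0.81 between WT-Veh and ob/ob-Rosi, and -0.02 to 0.22 in the comparisons with ob/ob-Veh. What the iWAT libraries of a number share in WT-Veh and ob/ob-Rosi, and its part in the iWAT results, was not tested. With a replicate block the counts were 11, 10 and 0 in eWAT and 2, 1 and 0 in iWAT, and of all pairs 9.11%, 8.39% and 0.387% in eWAT and 6.30%, 10.4% and 0.0851% in iWAT were then called. No call was lost. Gained in eWAT ob/ob-Veh, all lower, were Csf1r in progenitor-like and mesothelial-like cells, Csf2ra in preadipocyte-like, mesothelial-like and EC-like cells and Csf2rb in preadipocyte-like cells. With rosiglitazone Csf1 was called lower in progenitor-like (-0.93, adjusted p = 0.0311) and EC-like cells, Csf1r higher in progenitor-like and NKT-like cells, and Csf2ra higher in preadipocyte-like and EC-like cells.

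With all macrophage-like cells together, the uncalled log2 fold changes of Csf1r in eWAT PVM-like cells turned from -0.14 to 0.25 and from 0.20 to -0.22, and with all APC-like cells together that of Csf1 in eWAT progenitor-like cells from 0.32 to -0.02. The iWAT Il34 ratio in progenitor-like cells was -3.60, -2.96 over all APC-like cells, and -3.91 to -3.22 without a library, and that with rosiglitazone 3.54 and 2.91 to 3.98.

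Depth limits the low sums: a called pair rests on as few as 32 UMIs of Il34 in an eWAT progenitor-like sum, 20 of Csf1 in an iWAT NKT-like sum and 4 of Il34 in an eWAT mesothelial-like sum. Intervals were not given for shares of cells, since cells of a library are not replicates. The separation of ob/ob-Veh cells into clusters of their own cannot be told apart from the group, and sums of a class carry free RNA of other classes.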
